A study of Mus musculus with 12 samples.

Results

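The data described here are the response of fat cells to 3 h of isoproterenol, measured as the difference between 3 arrays of treated cells and 3 arrays of untreated cells that all carried a negative control shRNA. The 6 arrays were chosen by their labels among the 12 arrays of the series, and all 15267 genes whose probe set is annotated to a single gene symbol were tested. The cells were 3T3-L1 adipocytes, which are mouse fibroblast-like cells turned into white fat cells in culture with insulin, IBMX (an inhibitor of phosphodiesterases) and dexamethasone. On day 9 of differentiation every culture received adenovirus at a multiplicity of infection of 500. In the groups described first the virus carried the control shRNA, and in the other 6 arrays it carried an shRNA against TBLR1, a cofactor of transcription. Cells were placed in Krebs-Ringer buffer for 2 h on the third day after the virus, and were then given 10 µM isoproterenol for 3 h or none. The treated and the untreated control cells thus share the line, the virus, the control shRNA and the buffer, and differ in the labels by the agonist. A line in culture holds no nerves, vessels or immune cells, and a single agonist dose and a single time were measured. The labels do not say whether replicates were separate cultures. Every p-value therefore stands for the spread among arrays, pooled over the groups of all 12 arrays, which may be technical.

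Isoproterenol is a catecholamine analogue that binds β-adrenergic receptors, which in fat cells couple to the G protein that switches on adenylyl cyclase. The cAMP formed activates protein kinase A, which phosphorylates lipases and droplet proteins to start the release of fatty acids, and phosphorylates CREB in the nucleus. CREB and its coactivators then switch on genes such as the NR4A orphan receptors, the PGC-1 coactivator gene Ppargc1a, and genes that damp the signal again, among them phosphodiesterases and the inhibitory form of CREM.

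Values are log2 expression levels as deposited, quantile normalised, with a median of 7.14 on every array. A change is given as the log2 difference, isoproterenol minus untreated, ± SE with n = 3 arrays per group. The test was limma's moderated test, with p-values adjusted by the Benjamini-Hochberg method over the 15267 genes, and a gene was called at an adjusted p under 0.05. Of all genes tested 18.6% were called, 7.7% as higher (1175 genes) and 10.9% as lower (1658 genes). The counts of list members called below are to be read beside these shares, and no list was tested as a set. Most calls were small, since 164 of the 2833 called genes were at least 1.5-fold higher and 25 at least 1.5-fold lower. The large changes were nearly all rises. Among called genes 64 were at least 2-fold higher, which is 0.419% of genes, and 4 were at least 2-fold lower, which is 0.0262%. The count of 4 was 2 after cyclic loess normalisation, and 2 when treated replicate 2 or treated replicate 3 was left out. Treated and untreated arrays did not overlap for 33.2% of genes. The split of calls depended on the scaling, as 41.5% of calls were higher with the deposited values, 50.1% after cyclic loess and 25.2% (620 genes higher) when arrays were centred on the bacterial hybridisation controls, which moved the median of all genes to -0.05. Arrays of a group correlated at 0.998 to 0.999 across genes, and treated with untreated arrays at 0.993 to 0.994. The signal of the 3′ probe set of actin exceeded that of its 5′ probe set by 0.98 to 1.04 on treated arrays and by 0.93 to 0.96 on untreated arrays, so this measure of RNA integrity moved with the treatment, and its part in the results was not tested. The same measure of Gapdh was -0.033 to 0.053 on treated and 0.01 to 0.057 on untreated arrays, which overlap. In bulk samples fewer cells of a type and less RNA per cell cannot be told apart.

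**Figure D1:**
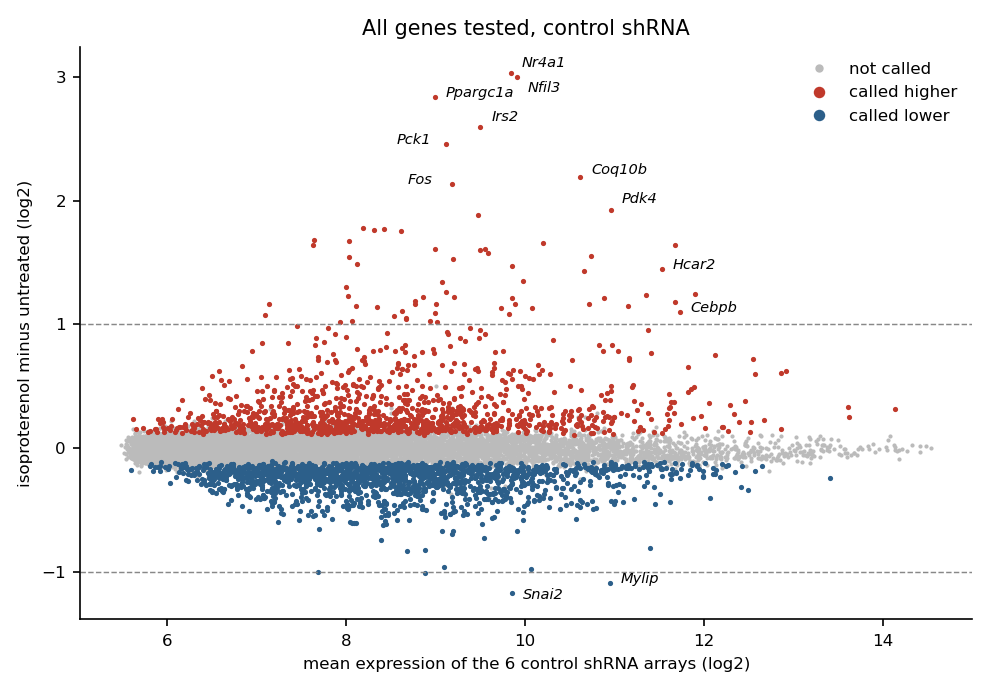
Each point is 1 of 15267 genes, with its mean log2 expression over the 6 control shRNA arrays on the x axis and the log2 difference, isoproterenol minus untreated, on the y axis. The dashed lines mark 2-fold, and the points beyond them are 64 above and 4 below.

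The 3 genes taken as markers of the response, which were chosen with earlier results of these data known, showed the largest rises. Nr4a1, which encodes an orphan nuclear receptor made within hours of many stimuli, read 11.28, 11.49 and 11.33 on isoproterenol arrays, against 8.34, 8.41 and 8.24 on untreated arrays. Nfil3, which encodes a repressor of the basic leucine zipper family, read 11.38, 11.44 and 11.41 on isoproterenol arrays, against 8.54, 8.45 and 8.25 on untreated arrays. Ppargc1a, the coactivator of mitochondrial and thermogenic genes, read 10.32, 10.59 and 10.34 on isoproterenol arrays, against 7.60, 7.57 and 7.56 on untreated arrays. For each of them the groups lay far apart, the treated arrays all being higher than any untreated one. Nr4a1 rose by 3.03 ± 0.09 (adjusted p = 1.28e-12), which is 8.18-fold. Nfil3 rose by 3.00 ± 0.07 (adjusted p = 2.61e-13), or 7.99-fold, and Ppargc1a by 2.84 ± 0.07 (adjusted p = 2.61e-13), or 7.16-fold. They are the 3 largest rises among the genes tested, which is a description given how they were chosen.

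The promoters of these genes are shown because CREB binds the cAMP response element, whose full palindrome is TGACGTCA and whose short form is TGACG, read on either strand, so that CGTCA counts too and every full element also holds the short one. The sequences are RefSeq's on GRCm38.p6, 300 bases each that run across the annotated start and lie mostly before it, written 5′ to 3′ on the strand of the gene with the short form in capitals. That of Nr4a1 is chr15:101266596-101266895 on the plus strand, that of Nfil3 is chr13:52980990-52981289 on the minus strand, and that of Ppargc1a is chr5:51567676-51567975 on the minus strand.
Nr4a1: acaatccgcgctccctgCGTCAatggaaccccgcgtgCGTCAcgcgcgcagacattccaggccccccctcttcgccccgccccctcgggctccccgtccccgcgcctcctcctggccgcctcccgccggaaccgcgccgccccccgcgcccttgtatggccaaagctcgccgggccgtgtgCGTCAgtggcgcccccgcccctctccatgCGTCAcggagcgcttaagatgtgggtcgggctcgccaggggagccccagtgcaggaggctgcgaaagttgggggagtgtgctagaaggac
Nfil3: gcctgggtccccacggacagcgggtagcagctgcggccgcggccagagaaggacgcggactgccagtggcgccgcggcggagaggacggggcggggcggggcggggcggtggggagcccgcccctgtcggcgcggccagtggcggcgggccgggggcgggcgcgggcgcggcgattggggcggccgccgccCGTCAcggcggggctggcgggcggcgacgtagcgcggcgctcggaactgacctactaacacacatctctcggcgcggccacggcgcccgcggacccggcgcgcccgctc
Ppargc1a: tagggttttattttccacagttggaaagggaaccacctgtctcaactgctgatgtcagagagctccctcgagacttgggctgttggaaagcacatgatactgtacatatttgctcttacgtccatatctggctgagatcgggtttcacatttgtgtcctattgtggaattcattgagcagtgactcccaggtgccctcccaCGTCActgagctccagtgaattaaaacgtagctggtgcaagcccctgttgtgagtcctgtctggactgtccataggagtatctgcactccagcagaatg
The Nr4a1 promoter holds 4 short elements, which begin at -233, -213, -69 and -40 counted from the start, and those of Nfil3 and Ppargc1a hold 1 each, at -59 and -49. Among the 64 genes at least 2-fold higher, 55 had an entry in the promoter table, with 64 promoters. The full element was in 5 of these promoters (7.81%), against 2.63% of the promoters of all genes tested. The short element was in 31 of them (48.44%), against 26.86% for all genes tested and 29.22% for genes called lower. It was in 37% of the promoters of genes called 1.5-fold to 2-fold higher and in 34.55% for all genes called higher. For genes at least 1.5-fold lower it was in 3 of 25 promoters (12%). The 64 promoters were richer in G and C, with a median of 62.3% against 59% for all genes tested. The part of base composition in these shares was not tested. The binding motif of NR4A receptors, AAAGGTCA, and the D-box motif TTACGTAA of the Nfil3 family were in none of the 64 promoters, and were in 1.21% and 0.19% of the promoters of all genes tested. These matches are descriptions of the letters in the window and not of binding.

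The full elements are printed with 10 bases on either side, because they belong to genes described below. They lie at chr2:32424199-32424226 (minus strand) for Slc25a25, chr1:134079304-134079331 (minus) for Btg2, chr7:45526263-45526290 (minus) for Ppp1r15a, chr17:26508598-26508625 (minus) for Dusp1 and chr15:79347481-79347508 (plus) for Maff. The promoter of Pck1 has the short form alone, at chr2:173152973-173152997 (plus).
Slc25a25: ctgcaagcagTGACGTCAgtcctgatct
Btg2: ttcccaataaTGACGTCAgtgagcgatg
Ppp1r15a: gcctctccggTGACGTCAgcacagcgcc
Dusp1: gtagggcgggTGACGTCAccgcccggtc
Maff: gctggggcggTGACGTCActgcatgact
Pck1: ctgccccttaCGTCAgaggcgagcc
The elements begin between -166 (Btg2) and -12 (Ppp1r15a) counted from the start, and that of Pck1 begins at -90.

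**Figure D2:**
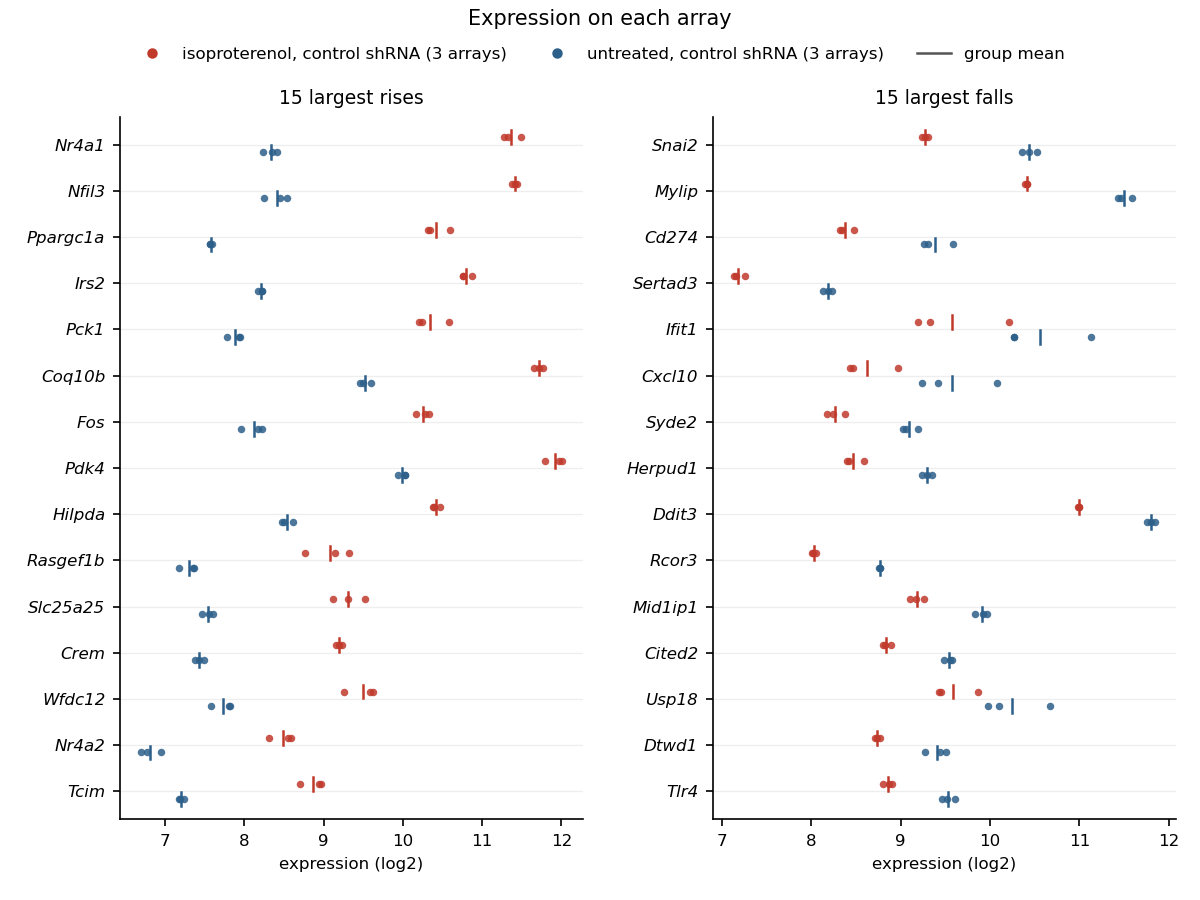
Log2 expression on each array for the 15 largest rises and the 15 largest falls among called genes whose groups do not overlap. Points are single arrays, isoproterenol above untreated for each gene, and bars are group means. The rises reach 3.03 (Nr4a1) and the falls -1.17 (Snai2), and replicate 1 stands apart in Ifit1, Cxcl10 and Usp18.

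Genes that act within the cAMP pathway to damp it were among those that rose. Pde4b, which encodes a phosphodiesterase that breaks down cAMP, read 8.87, 9.01 and 8.87 on isoproterenol arrays, against 7.84, 7.85 and 7.64 on untreated arrays. Crem, whose short product represses cAMP-responsive genes, read 9.20, 9.16 and 9.24 on isoproterenol arrays, against 7.49, 7.43 and 7.38 on untreated arrays. The probe set sums what it detects, so the forms of Crem cannot be told apart. Both genes were higher on every treated array, Pde4b by 1.14 ± 0.06 (adjusted p = 6.34e-10) and Crem by 1.76 ± 0.05 (adjusted p = 1.67e-12).

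The phosphodiesterase list had 2 of 14 measured genes called higher, the other being Pde1b (0.26 ± 0.05, adjusted p = 0.00126). Of 24 measured genes of the cAMP and protein kinase A machinery 5 rose and 19 were not called, and the list's median was 0.07, against -0.004 for all genes. The 5 were Akap1, an anchor of the kinase at mitochondria (0.39 ± 0.04), the adenylyl cyclase gene Adcy3 (0.38 ± 0.05), the regulatory subunit gene Prkar1a (0.28 ± 0.04), Pakap (0.23 ± 0.05) and the kinase inhibitor gene Pkig (0.20 ± 0.06). The last 2 lost the call under hybridisation control centring, and Pkig also without untreated replicate 2 or treated replicate 2. The rise of Pakap also rests on the brighter of its 2 probe sets, since their mean differed by 0.07 (adjusted p = 0.361). In the CREB family 3 of 12 measured genes rose, 3 fell and 6 were not called. Beside Crem, the rises were those of Creb3l2 (0.34 ± 0.04, adjusted p = 3.07e-05) and of the coactivator gene Crtc2 (0.18 ± 0.05, adjusted p = 0.00954). The falls were those of Atf1 (-0.15 ± 0.04), Atf2 (-0.15 ± 0.05) and Creb1 itself (-0.12 ± 0.04). That count of 3 was 0 after cyclic loess or without untreated replicate 1 or any single treated replicate, and 1 without untreated replicate 2. Over the alternatives the adjusted p ranged up to 0.181 for Crtc2, 0.103 for Atf1, 0.13 for Atf2 and 0.157 for Creb1.

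Genes of kinases and small G proteins that respond to cAMP moved both ways. Sik1, which encodes a salt-inducible kinase that phosphorylates the CREB coactivators, read 9.84, 10.05 and 10.01 on isoproterenol arrays, against 8.35, 8.45 and 8.52 on untreated arrays. Rasd1, a dexamethasone-induced Ras-like G protein, read 8.66, 8.88 and 8.88 on isoproterenol arrays, against 7.33, 7.24 and 7.22 on untreated arrays. The groups are well apart for both genes, and Sik1 rose by 1.53 ± 0.06 (adjusted p = 1.8e-11) and Rasd1 by 1.54 ± 0.06 (adjusted p = 2.9e-11). Sik2, the salt-inducible kinase that is abundant in fat, rose by 0.56 ± 0.04 (adjusted p = 2.11e-07). The small G protein genes Gem (-0.52 ± 0.09, adjusted p = 0.000421) and Rrad (-0.44 ± 0.06, adjusted p = 9.05e-05) fell. In this list of 14 measured genes 5 rose and 3 fell.

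Some genes of phosphatases that end MAP kinase signalling rose. Dusp6, which acts on ERK, read 9.75, 9.77 and 9.88 on isoproterenol arrays, against 8.18, 8.48 and 7.92 on untreated arrays, a rise of 1.61 ± 0.13 (adjusted p = 3.08e-07). Its untreated arrays were spread more widely than its treated ones, but no array of one group reached the other. Dusp1 rose by 1.13 ± 0.10 (adjusted p = 8.91e-07) and Dusp10, which acts on p38 and JNK, by 1.07 ± 0.07 (adjusted p = 1.73e-08). Of 18 measured genes of MAP kinase phosphatases and ERK feedback 6 rose and 12 were not called, and the smaller rises included Spry4 (0.30 ± 0.04) and Dusp14 (0.29 ± 0.04).

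Transcription factors of the immediate early class formed the list with the most members called. Fos, a subunit of the AP-1 factor, read 10.16, 10.33 and 10.29 on isoproterenol arrays, against 8.22, 8.18 and 7.96 on untreated arrays. Fosl1, its relative, read 8.47, 8.43 and 8.46 on isoproterenol arrays, against 6.84, 6.78 and 6.83 on untreated arrays. Treated arrays were higher throughout, Fos by 2.14 ± 0.13 (adjusted p = 6.66e-09) and Fosl1 by 1.64 ± 0.10 (adjusted p = 9.74e-09). Of the 21 measured AP-1 and EGR genes 13 rose and 8 were not called, where 7.7% of all genes were called higher, and the list's median was 0.50. Btg2, an antiproliferative gene, rose by 1.47 ± 0.10, Ier3 by 1.34 ± 0.13 and the stress-induced factor Atf3 by 1.22 ± 0.08. Fosl2 (1.04 ± 0.05), Maff (1.09 ± 0.10), Jun (0.69 ± 0.06) and Egr1 (0.68 ± 0.13), which are named here after their values were seen, rose too.

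Within the NR4A family the members differed. Nr4a2 read 8.31, 8.59 and 8.55 on isoproterenol arrays, against 6.70, 6.96 and 6.77 on untreated arrays, a rise of 1.68 ± 0.10 (adjusted p = 6.38e-09) or 3.2-fold. Nr4a3 read 6.54, 6.50 and 6.44 on isoproterenol arrays, against 6.45, 6.37 and 6.47 on untreated arrays. The groups overlap for Nr4a3, and its difference of 0.06 ± 0.05 was not called (adjusted p = 0.443). All 6 values of Nr4a3 lie below the array median of 7.14, and whether its probe set detects the transcript was not tested. Of 30 measured nuclear receptor genes outside the family 2 rose and 5 fell, where 7.7% of all genes were called higher and 10.9% lower. The vitamin D receptor gene Vdr rose by 0.99 ± 0.05 (adjusted p = 6.07e-10), while the glucocorticoid receptor gene Nr3c1 fell by 0.46 ± 0.05 (adjusted p = 3.27e-06).

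The factors that direct fat cell differentiation did not move as a group, since 4 of 17 measured genes rose, 4 fell and 9 were not called. Cebpb, which acts early in adipogenesis and is a target of CREB, read 12.25, 12.33 and 12.25 on isoproterenol arrays, against 11.12, 11.26 and 11.16 on untreated arrays. Pparg, the receptor that maintains the adipocyte state, read 12.28, 12.39 and 12.29 on isoproterenol arrays, against 12.62, 12.71 and 12.64 on untreated arrays. The groups were apart for both genes, in opposite directions: Cebpb rose by 1.10 ± 0.04 (adjusted p = 4.18e-11) and Pparg fell by 0.34 ± 0.05 (adjusted p = 0.000115). The forkhead gene Foxc2 rose by 0.97 ± 0.09 (adjusted p = 1.6e-06) and Cebpa by 0.60 ± 0.05 (adjusted p = 5.5e-07). The count of 4 that fell was 2 without untreated replicate 1.

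Among 12 measured Krüppel-like factors 3 rose and 2 fell. Klf4, known from early adipogenesis, read 10.18, 10.54 and 10.37 on isoproterenol arrays, against 8.84, 8.81 and 8.62 on untreated arrays, a rise of 1.61 ± 0.08 (adjusted p = 9.97e-10). Klf9 rose by 0.79 ± 0.04 (adjusted p = 3.03e-09). Klf6 read 8.35, 8.33 and 8.30 on isoproterenol arrays, against 8.91, 8.94 and 8.62 on untreated arrays, and fell by 0.50 ± 0.11 (adjusted p = 0.00329). The treated arrays of Klf6 lie close together below all untreated ones, of which replicate 3 is the lowest.

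The clock genes followed no single direction. Of 18 measured genes of the clock and of the PAR bZIP family 4 rose and 6 fell, with Nfil3, the repressor at the D-box, by far the largest rise. Dbp, an activator at the D-box, fell by 0.36 ± 0.07 (adjusted p = 0.000989). The repressor genes Bhlhe40 (0.60 ± 0.05) and Cry1 (0.43 ± 0.05, adjusted p = 2.6e-05) and the activator gene Arntl (0.34 ± 0.06) rose.

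In the list of the PGC-1 family and of thermogenesis, which holds Ppargc1a, 7 of 20 measured genes rose and 13 were not called, where 7.7% of all genes were called higher, and the list's median was 0.07. Ppargc1b read 8.97, 9.16 and 8.98 on isoproterenol arrays, against 8.16, 8.24 and 8.27 on untreated arrays, a rise of 0.81 ± 0.06 (adjusted p = 1.5e-07), and Pprc1, the third member of that family, rose by 0.29 ± 0.05. Fgf21, a hormone of the fasting response that brown fat also secretes, rose by 0.58 ± 0.05 (adjusted p = 2.71e-07). Ucp1, the uncoupling protein of brown fat, read 6.21, 6.28 and 6.35 on isoproterenol arrays, against 5.94, 5.84 and 6.11 on untreated arrays. The arrays of Ucp1 do not overlap but stand close, at 0.31 ± 0.06 or 1.24-fold (adjusted p = 0.00207). All 6 values of Ucp1 lie near the table's lowest value of 5.39. In the respiratory chain list, whose genes PGC-1 coactivators are known to serve, 2 of 31 measured genes rose and 1 fell, with differences between -0.12 and 0.15. In the list of the TCA cycle 1 of 19 rose and 2 fell, with differences between -0.15 and 0.15. Of all genes 10.9% were called lower.

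Genes of triglyceride re-synthesis and of fuel choice were among the largest rises. Pck1, the cytosolic PEP carboxykinase that supplies glycerol phosphate for triglyceride synthesis in fat, read 10.21, 10.59 and 10.24 on isoproterenol arrays, against 7.93, 7.78 and 7.94 on untreated arrays. Pdk4, a kinase that switches off pyruvate dehydrogenase, read 11.79, 11.97 and 12.01 on isoproterenol arrays, against 9.94, 10.02 and 10.02 on untreated arrays. Both were higher on all treated arrays by a wide margin, Pck1 by 2.46 ± 0.08 (adjusted p = 3.26e-12) or 5.5-fold and Pdk4 by 1.93 ± 0.07 (adjusted p = 1.2e-11) or 3.81-fold. Of 21 measured genes of glyceroneogenesis and triglyceride synthesis 9 rose and 12 were not called, where 7.7% of all genes rose, and the median was 0.13. The acyltransferase genes Gpat3 (0.73 ± 0.04, adjusted p = 3.98e-09) and Dgat1 (0.38 ± 0.04, adjusted p = 3.62e-06) act at the first and the last step of that pathway. Pdk3 rose by 0.31 ± 0.05.

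The genes of the main lipases were not called. Pnpla2, the main triglyceride lipase of fat, which is named here after its values were seen, read 11.69, 11.62 and 11.64 on isoproterenol arrays, against 11.58, 11.59 and 11.55 on untreated arrays (0.08 ± 0.04, adjusted p = 0.188). Lipe, hormone-sensitive lipase, read 11.50, 11.49 and 11.46 on isoproterenol arrays, against 11.43, 11.51 and 11.51 on untreated arrays (-0.00 ± 0.06, adjusted p = 0.994). Treated arrays of Pnpla2 lie just above the untreated ones and those of Lipe overlap with them.

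Other genes of this group rose. Hilpda, an inhibitor of Pnpla2's product, read 10.40, 10.38 and 10.47 on isoproterenol arrays, against 8.62, 8.51 and 8.48 on untreated arrays. Hcar2, the receptor through which hydroxybutyrate and nicotinic acid lower cAMP in fat cells, read 12.31, 12.18 and 12.28 on isoproterenol arrays, against 11.00, 10.71 and 10.70 on untreated arrays. Hilpda was higher by 1.88 ± 0.06 (adjusted p = 4.3e-12) or 3.69-fold, and Hcar2 by 1.45 ± 0.08 (adjusted p = 1.49e-09) or 2.73-fold, with no overlap in either. Among droplet coat genes Plin4 rose by 0.46 ± 0.07 (adjusted p = 0.000231) and Plin3 fell by 0.36 ± 0.04 (adjusted p = 4.78e-06). Plin2, a coat protein gene (0.33 ± 0.05), and Abhd5, which encodes the coactivator of Pnpla2's product (0.31 ± 0.05), rose as well and were named after their values were seen. The lipase inhibitor gene G0s2 rose by 0.40 ± 0.11 (adjusted p = 0.0216, from 0.000477 to 0.112 over the alternatives). The call was lost without untreated replicate 1, without untreated replicate 2 (at 0.25), without treated replicate 2 or without treated replicate 3. It was also lost on all arrays with a trended, robust variance prior (adjusted p = 0.0792). In all 8 of 22 measured lipolysis and droplet genes rose, 1 fell and 13 were not called, and 5 rose without untreated replicate 2.

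Lists of lipid use and synthesis moved less. Of all genes 7.7% were called higher and 10.9% lower. In fatty acid oxidation 2 of 20 measured genes rose and 1 fell, with differences between -0.15 and 0.23. The largest was that of Cpt1a, the carnitine palmitoyltransferase of the mitochondrial outer membrane (0.23 ± 0.06, adjusted p = 0.013, from 0.00484 to 0.0655 over the alternatives). Cpt1a was not called without untreated replicate 2 or treated replicate 3, or under hybridisation control centring (adjusted p = 0.058). Angptl4, a secreted inhibitor of lipoprotein lipase, read 12.94, 12.83 and 12.84 on isoproterenol arrays, against 12.36, 12.26 and 12.20 on untreated arrays, a rise of 0.60 ± 0.05 (adjusted p = 3.41e-07). The acyl-CoA synthetase gene Acsl4 rose by 0.64 ± 0.06 (adjusted p = 2.2e-06), and these are 2 of the 3 rises among 14 genes of fatty acid uptake and activation. Srebf1, the master regulator of lipogenesis, fell by 0.39 ± 0.05 (adjusted p = 1.18e-05), while 14 of 16 measured lipogenesis genes were not called. The list of cholesterol synthesis had 2 of 15 genes higher and 1 lower.

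In insulin signalling a single gene stood out. Irs2, which encodes a docking protein of the insulin receptor, read 10.76, 10.88 and 10.75 on isoproterenol arrays, against 8.17, 8.22 and 8.23 on untreated arrays. The groups are tight and far apart, with a rise of 2.59 ± 0.09 (adjusted p = 8.35e-12) or 6.03-fold. Of 19 measured genes in that list 3 rose, 1 fell and 15 were not called. Irs2 was the only rise called when untreated replicate 1 or untreated replicate 2 was left out. The same held under hybridisation control centring and in the fit of only the 6 control shRNA arrays. In glucose transport and glycolysis 2 of 14 measured genes rose and 1 fell. The glucose transporter gene Slc2a1 read 11.29, 11.20 and 11.32 on isoproterenol arrays, against 10.48, 10.36 and 10.61 on untreated arrays (0.78 ± 0.09, adjusted p = 1.82e-05). Pfkfb3, whose product raises the activator of phosphofructokinase, rose by 0.76 ± 0.07 (adjusted p = 1.2e-06).

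Several of the largest rises belong to no list of this report. Coq10b, a coenzyme Q binding protein of mitochondria, read 11.65, 11.77 and 11.71 on isoproterenol arrays, against 9.50, 9.60 and 9.46 on untreated arrays. Slc25a25, a mitochondrial carrier of ATP and magnesium, read 9.11, 9.52 and 9.30 on isoproterenol arrays, against 7.60, 7.46 and 7.55 on untreated arrays. Coq10b rose by 2.19 ± 0.05 (adjusted p = 2.61e-13) and Slc25a25 by 1.77 ± 0.08 (adjusted p = 3.72e-10), both without overlap. Rasgef1b, an exchange factor of Ras-like proteins, rose by 1.78 ± 0.10, Wfdc12 by 1.76 ± 0.10 and Tcim by 1.67 ± 0.06. Named after their values were seen, Noct, a phosphatase with daily rhythm known from lipid metabolism, rose by 1.66 ± 0.11, C9orf72 by 1.64 ± 0.05, the autophagy gene Atg101 by 1.60 ± 0.06 and the kinase gene Pim3 by 1.55 ± 0.06. Of the 64 genes at least 2-fold higher, 32 belonged to a list and 32 to none.

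**Figure D3:**
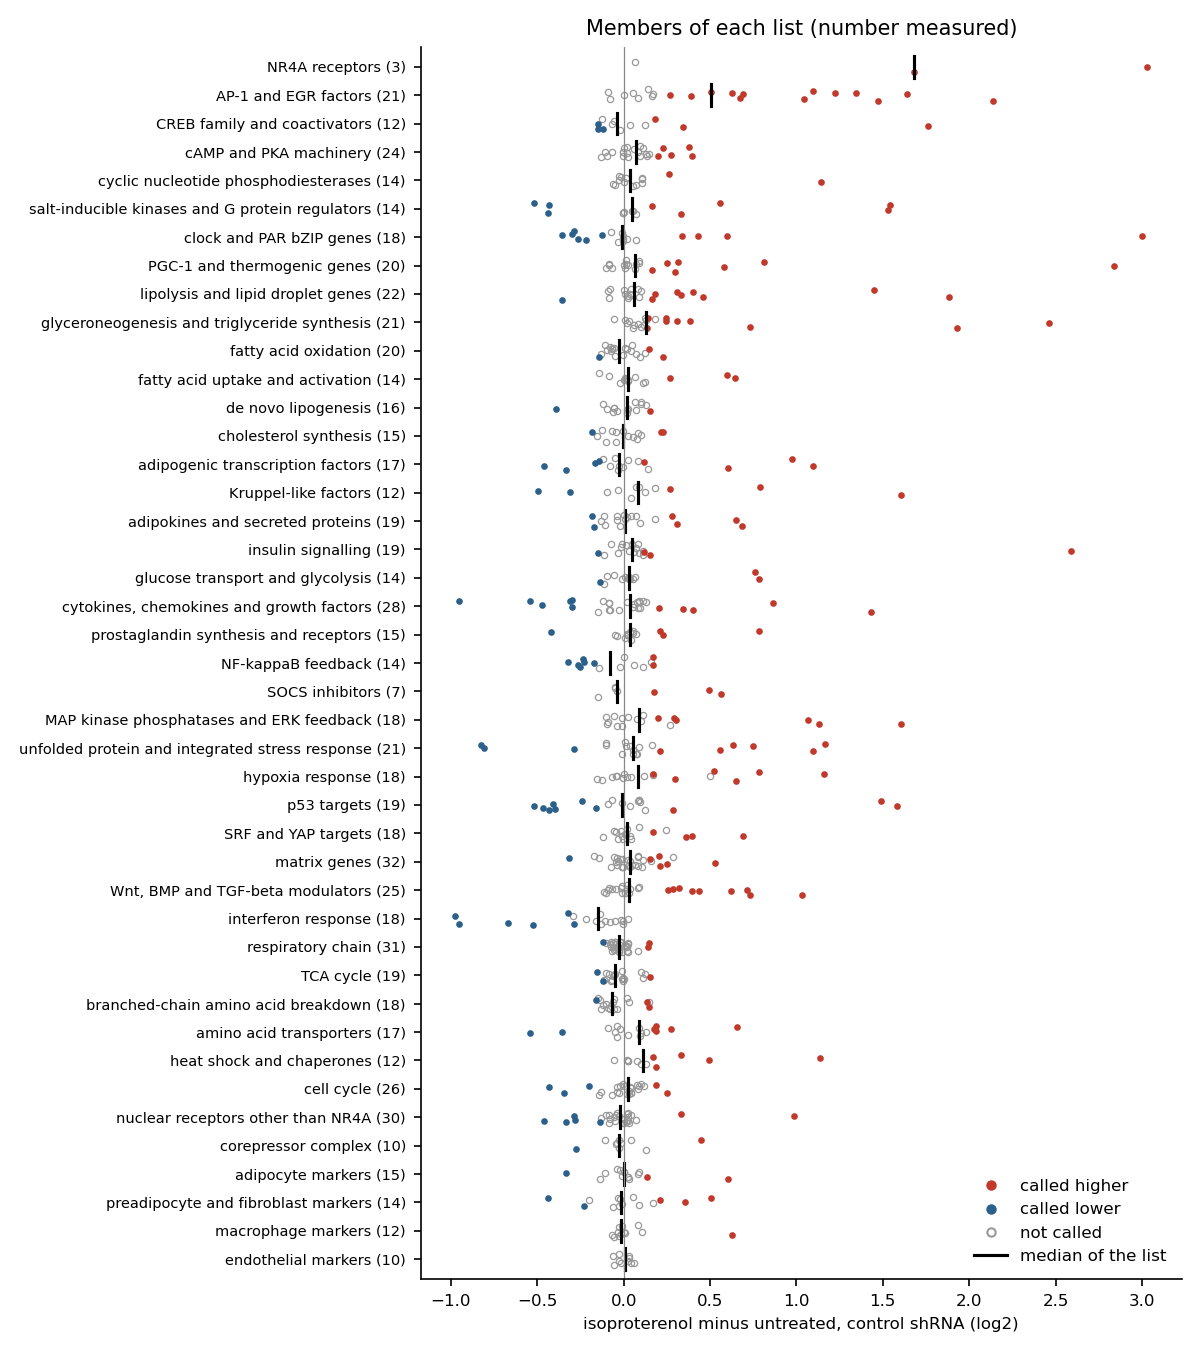
Each row is a list of genes, with the number measured, and each point a member with its log2 difference, isoproterenol minus untreated, on the x axis. Filled points were called higher or lower, open points were not called, and the bar is the median. The medians of 38 of the 43 lists lie within 0.1 of 0, while single members reach 3.03.

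Secreted factors and cytokines moved in both directions. Il6, a cytokine that fat cells release on adrenergic stimulation, read 11.37, 11.35 and 11.40 on isoproterenol arrays, against 10.21, 10.14 and 9.49 on untreated arrays. Its untreated replicate 3 was the lowest, and all untreated arrays were below the treated ones, with a rise of 1.43 ± 0.16 (adjusted p = 9.8e-06). Of 28 measured cytokine, chemokine and growth factor genes 5 rose and 6 fell, and 3 fell when untreated replicate 2 or treated replicate 2 was left out. The growth factor gene Ereg rose by 0.86 ± 0.23 (adjusted p = 0.0127, from 1.4e-05 to 0.0919 over the alternatives). Ereg lost its call without untreated replicate 3, treated replicate 1 or treated replicate 3, and with a trended, robust variance prior (adjusted p = 0.0919). Il15 fell by 0.54 ± 0.08 (adjusted p = 8.43e-05). Among adipokines and other secreted proteins Nrg4, an EGF-like factor of brown fat, rose by 0.68 ± 0.07, Vegfa by 0.65 ± 0.05, the angiotensinogen gene Agt by 0.31 ± 0.04 and Metrnl by 0.28 ± 0.06, which are the 4 rises among 19 measured. Ptgs2, the inducible prostaglandin synthase, rose by 0.78 ± 0.10 (adjusted p = 4.77e-05), and the prostaglandin receptor gene Ptgfr fell by 0.42 ± 0.04 (adjusted p = 1.97e-06).

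Genes of the interferon response were lower with isoproterenol where they were called. Cxcl10, an interferon-induced chemokine, read 8.97, 8.43 and 8.46 on isoproterenol arrays, against 10.08, 9.42 and 9.23 on untreated arrays. Ifit1, an antiviral RNA-binding protein, read 10.21, 9.33 and 9.20 on isoproterenol arrays, against 11.13, 10.27 and 10.27 on untreated arrays. Usp18, which removes the ubiquitin-like protein ISG15, read 9.86, 9.46 and 9.43 on isoproterenol arrays, against 10.68, 10.10 and 9.97 on untreated arrays. For all 3 genes replicate 1 is the highest array of both groups, and in Ifit1 the treated replicate 1 lies just below the lowest untreated array. Cxcl10 fell by 0.96 ± 0.17 (adjusted p = 0.000785), Ifit1 by 0.98 ± 0.23 (adjusted p = 0.00586) and Usp18 by 0.67 ± 0.14 (adjusted p = 0.00245). The call of Ifit1 was lost with a trended, robust variance prior (adjusted p = 0.0613, the highest over the alternatives, of which the lowest was 6.3e-08).

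The fall was shared by part of the list. Of 18 measured interferon response genes 6 fell and 12 were not called, where 10.9% of all genes were called lower, and the median was -0.15. The factors of the interferon signal Irf9 (-0.52 ± 0.10) and Stat2 (-0.32 ± 0.06) were among the 6, as was Irf1 (-0.29 ± 0.04), which was named after its values were seen. Without untreated replicate 3 the count was 10. Of 14 measured feedback genes of NF-κB 6 fell and 2 rose, with a median of -0.08. Tnip1 (-0.32 ± 0.06) and Relb (-0.26 ± 0.04) led these falls. Ccl5, a chemokine gene that both pathways control, fell by 0.47 ± 0.10 (adjusted p = 0.00222), and the Toll-like receptor gene Tlr4 by 0.67 ± 0.06 (adjusted p = 4.64e-07). Among 7 measured SOCS genes Cish (0.56 ± 0.07) and Socs3 (0.49 ± 0.13, adjusted p = 0.0148) were 2 of the 3 rises. The call of Socs3 was lost without treated replicate 1 and with a trended, robust variance prior (adjusted p from 0.000263 to 0.0786 over the alternatives).

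**Figure D4:**
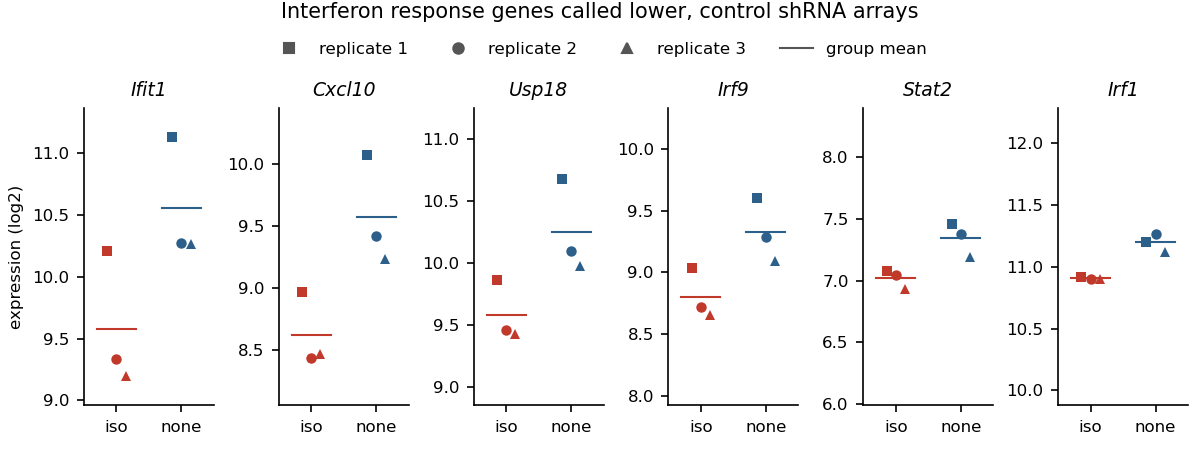
Log2 expression of the 6 interferon response genes called lower, isoproterenol on the left and untreated on the right of each panel, with a marker for each replicate number, group means as lines and the same span of log2 units on every y axis. Replicate 1 is highest in both groups for Ifit1, Cxcl10, Usp18, Irf9 and Stat2.

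The largest falls of all were of modest size. Snai2, a repressor known from epithelial-mesenchymal transition, read 9.30, 9.24 and 9.27 on isoproterenol arrays, against 10.36, 10.44 and 10.52 on untreated arrays. Mylip, a ubiquitin ligase that degrades the LDL receptor, read 10.41, 10.40 and 10.42 on isoproterenol arrays, against 11.46, 11.43 and 11.59 on untreated arrays. Cd274, the checkpoint ligand PD-L1, read 8.48, 8.32 and 8.34 on isoproterenol arrays, against 9.59, 9.31 and 9.26 on untreated arrays. In these 3 genes every treated array is below every untreated one. Snai2 fell by 1.17 ± 0.07 (adjusted p = 3.98e-09), Mylip by 1.09 ± 0.08 (adjusted p = 5.14e-08), Cd274 by 1.01 ± 0.10 (adjusted p = 1.85e-06) and Sertad3 by 1.00 ± 0.05 (adjusted p = 3.36e-10). The next falls were those of Syde2 (-0.83 ± 0.05), of Rcor3, a corepressor with Rest (-0.74 ± 0.04), of Mid1ip1, which promotes acetyl-CoA carboxylase polymerisation (-0.73 ± 0.06), of Cited2, a CBP and p300 binding protein (-0.70 ± 0.05), and of Dtwd1 (-0.67 ± 0.06).

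Genes of the stress response of the endoplasmic reticulum moved both ways. Ppp1r15a, which ends the integrated stress response by dephosphorylating eIF2α, read 9.57, 9.64 and 9.55 on isoproterenol arrays, against 8.37, 8.47 and 8.42 on untreated arrays. Ddit3, the death-promoting factor CHOP, read 11.00, 11.00 and 10.98 on isoproterenol arrays, against 11.76, 11.84 and 11.79 on untreated arrays. The groups are tight and lie in opposite order, Ppp1r15a being higher by 1.17 ± 0.05 (adjusted p = 2.95e-10) and Ddit3 lower by 0.81 ± 0.05 (adjusted p = 4.37e-09). Herpud1, of the disposal pathway of the endoplasmic reticulum, fell by 0.82 ± 0.05 (adjusted p = 1.48e-08), while Dnajb9, a chaperone partner there, rose by 0.75 ± 0.06 (adjusted p = 3.23e-07). In this list of 21 measured genes 6 rose and 3 fell.

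The heat shock list had 5 of 12 measured genes higher and 7 not called, where 7.7% of all genes were called higher. The rises were led by Bag3, a co-chaperone of selective autophagy (1.14 ± 0.05, adjusted p = 2.16e-10), Hsph1 (0.49 ± 0.04) and Hspb8 (0.33 ± 0.04). The count was 3 without treated replicate 2 or under hybridisation control centring. Of 18 hypoxia genes measured 6 rose, among them Ankrd37 (1.16 ± 0.10, adjusted p = 3.41e-07) and Hif1a itself (0.52 ± 0.05, adjusted p = 2.1e-06). The mean level of the 18 was 9.15, 9.17 and 9.12 on isoproterenol arrays, against 8.83, 8.82 and 9.12 on untreated arrays, so that untreated replicate 3 stood at the treated level. The p53 list had 3 rises and 7 falls among 19 measured genes, where 10.9% of all genes were called lower. Its rises were those of Gadd45g (1.58 ± 0.09) and Plk3 (1.49 ± 0.07), which respond to several stimuli, and of the cell cycle inhibitor gene Cdkn1a (0.28 ± 0.06), which is named after its values were seen, while the targets Sesn1 (-0.52 ± 0.07), Bbc3 (-0.47 ± 0.06) and Trp53inp1 (-0.43 ± 0.07) fell.

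Modulators of TGF-β, BMP and Wnt signalling rose in 9 of 25 measured cases, and 16 were not called. Of all genes 7.7% were called higher and 10.9% lower. Id3, a target of BMP signals that blocks helix-loop-helix factors, read 8.57, 8.59 and 8.58 on isoproterenol arrays, against 7.54, 7.65 and 7.45 on untreated arrays (1.03 ± 0.13, adjusted p = 3.77e-05). The pseudoreceptor gene Bambi (0.73 ± 0.07), Pmepa1 (0.71 ± 0.05) and the corepressor gene Tgif1 (0.62 ± 0.08) encode inhibitors of TGF-β or BMP signals, and rose. Amino acid transporter genes gave 5 rises and 2 falls among 17 measured. Slc3a2, the heavy chain shared by several of these transporters, rose by 0.65 ± 0.05 (adjusted p = 5.58e-08) and its partner Slc7a5 by 0.28 ± 0.05, while Slc43a1 fell by 0.54 ± 0.07. That count of 5 was 3 without untreated replicate 3 and 2 under hybridisation control centring. In the breakdown of branched-chain amino acids 2 of 18 measured genes rose and 1 fell. Matrix genes gave 5 rises among 32 measured, led by Tnc (0.53 ± 0.07). Their count was 2 without untreated replicate 3 or treated replicate 1, and also under hybridisation control centring. Targets of SRF and YAP gave 4 rises among 18, led by Thbs1 (0.69 ± 0.13). That count of 4 was 1 without treated replicate 1, and 2 without treated replicate 3 or with a trended, robust variance prior. In the cell cycle list 2 of 26 measured genes rose and 3 fell, close to the shares of all genes. Mcm7 (-0.34 ± 0.04) was among the falls, and 5 fell without untreated replicate 3. The list of corepressor subunits gave 1 rise (Hdac4, 0.45 ± 0.05) and 1 fall among 10 measured, and Tbl1xr1, which encodes TBLR1, differed by 0.04 ± 0.04 (adjusted p = 0.593).

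The cells carried adipocyte markers at the top of the scale with and without the agonist. Adipoq, which encodes adiponectin, read 14.54 on every one of the 3 isoproterenol and 3 untreated arrays. Fabp4, the fatty acid binding protein of fat, read 14.49 on each isoproterenol array, against 14.49, 14.49 and 14.43 on untreated arrays. The highest value in the whole table is 14.58, and quantile normalisation gives equal ranks equal values, so a change of genes at this end of the scale could hardly show. The other markers Lpl (-0.02 ± 0.04), Cidec (0.09 ± 0.05), Retn (-0.04 ± 0.09) and Car3 (-0.14 ± 0.05, adjusted p = 0.0647) were not called. Of 15 measured adipocyte markers 12 were not called, and the 3 called were Cebpa, Pparg and Dgat2. Dgat2 was 0.14 ± 0.04 higher (adjusted p = 0.039, from 0.0126 to 0.447 over the alternatives), and its call was lost under hybridisation control centring and without any single array other than untreated replicate 3.

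Markers of other cells were checked in the same way. Among 14 measured preadipocyte and fibroblast markers Twist2 (0.50 ± 0.06), Prrx1 (0.36 ± 0.05) and Col1a1 (0.21 ± 0.06) rose, and Pdgfra (-0.44 ± 0.04) and Pdgfrb (-0.23 ± 0.04) fell. The call of Col1a1 (adjusted p = 0.0258, from 0.0039 to 0.138 over the alternatives) was lost without untreated replicate 1 or 3, without treated replicate 1 or 2, in the fit of only the 6 control shRNA arrays and under hybridisation control centring. The mean of that list was 8.73 to 8.78 on isoproterenol arrays and 8.70 to 8.75 on untreated arrays. The mean of 12 macrophage markers was 6.50 to 6.58 on isoproterenol arrays and 6.45 to 6.53 on untreated arrays. The defining marker Ptprc, the common antigen of white blood cells, read 5.78, 5.84 and 5.75 on isoproterenol arrays, against 5.85, 5.83 and 5.74 on untreated arrays, near the table's lowest value of 5.39. Cd14 alone was called among the 12 (0.63 ± 0.09, adjusted p = 7.7e-05). The 10 endothelial markers differed by -0.06 to 0.06, and their defining marker Pecam1 read 6.11, 6.09 and 6.20 on isoproterenol arrays, against 6.15, 6.18 and 6.25 on untreated arrays.

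The same agonist was given to cells with the TBLR1 shRNA, on arrays that share none with the comparison above. Tbl1xr1 read 6.48, 6.41 and 6.37 on isoproterenol and 6.45, 6.47 and 6.43 on untreated arrays with the TBLR1 shRNA, and 7.20 to 7.34 on the 6 control shRNA arrays. The difference of the responses, TBLR1 shRNA minus control shRNA, was called for 366 genes (2.4% of genes tested), of which 341 were also called in the control response. The difference and the control response share the control arrays, so this overlap is not evidence of its own. The response was smaller in size with the TBLR1 shRNA for 265 of the 341 genes, larger for 5 and opposite in sign for 71. The 341 had to be called in the control response, which favours a large one, so this split is a description. The sign is that of the estimate alone, whether or not a response was called with the TBLR1 shRNA. The count of 366 was 235 without untreated and 232 without treated control replicate 2, 218 without treated control replicate 3, 221 and 237 without untreated TBLR1 replicate 2 and 3, and 228 and 198 without treated TBLR1 replicate 2 and 3. Of the 64 genes at least 2-fold higher with the control shRNA, 62 also rose with the TBLR1 shRNA, and the difference was called for 50. Their median response was 0.84 with the TBLR1 shRNA and 1.28 with the control shRNA. Since the 64 were chosen for a large response in the control arrays, these medians are a description.

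Single genes show where the smaller response lay. Nr4a1 read 11.33, 11.49 and 11.37 on isoproterenol arrays with the TBLR1 shRNA and 9.77, 9.36 and 9.50 without the agonist, so that the treated arrays were close to those with the control shRNA and the untreated ones were higher. Pck1 read 9.36, 9.27 and 9.31 on isoproterenol arrays with the TBLR1 shRNA and 8.44, 8.40 and 8.42 without the agonist. For Pck1 the treated arrays were lower, and the untreated ones higher, than those with the control shRNA. The response of Nr4a1 was 1.85 with the TBLR1 shRNA and 3.03 with the control shRNA (difference -1.18 ± 0.12, adjusted p = 5.3e-05). That of Pck1 was 0.89 with the TBLR1 shRNA and 2.46 with the control shRNA (difference -1.57 ± 0.11, adjusted p = 1.62e-06). Among the 64 genes the treated mean was lower with the TBLR1 shRNA for 40 and the untreated mean higher for 48, with median differences between the shRNAs of -0.21 on treated and 0.30 on untreated arrays.

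For other genes no response to the agonist was called with the TBLR1 shRNA. Prom1, which encodes the membrane protein prominin, read 7.67, 7.65 and 7.57 on isoproterenol arrays with the control shRNA, against 6.51, 6.54 and 6.61 on untreated arrays, a rise of 1.08 ± 0.05 (adjusted p = 1.33e-10). With the TBLR1 shRNA it read 6.36, 6.28 and 6.34 on isoproterenol arrays, against 6.28, 6.21 and 6.34 on untreated arrays. The groups overlap there, and the response of 0.05 ± 0.05 differed from that with the control shRNA by -1.03 ± 0.07 (adjusted p = 9.67e-07). All 6 Prom1 values with the TBLR1 shRNA lie near the table's lowest value of 5.39, and detection at that level was not tested. Cenpu, a centromere protein gene, rose by 1.15 ± 0.08 with the control shRNA, and differed by 0.06 ± 0.08 with the TBLR1 shRNA (difference -1.10 ± 0.11, adjusted p = 4.15e-05). For others the difference was not called. The response of Wfdc12 was 1.91 with the TBLR1 shRNA and 1.76 with the control shRNA (difference 0.16 ± 0.15, adjusted p = 0.713), and that of Tcim was 1.73 with the TBLR1 shRNA and 1.67 with the control shRNA (difference 0.06 ± 0.09, adjusted p = 0.825). Tnfaip6, a hyaluronan-binding protein gene named after its values were seen, responded more with the TBLR1 shRNA (1.89 ± 0.08) than with the control shRNA (1.35 ± 0.08), by 0.54 ± 0.11 (adjusted p = 0.0134).

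**Figure D5:**
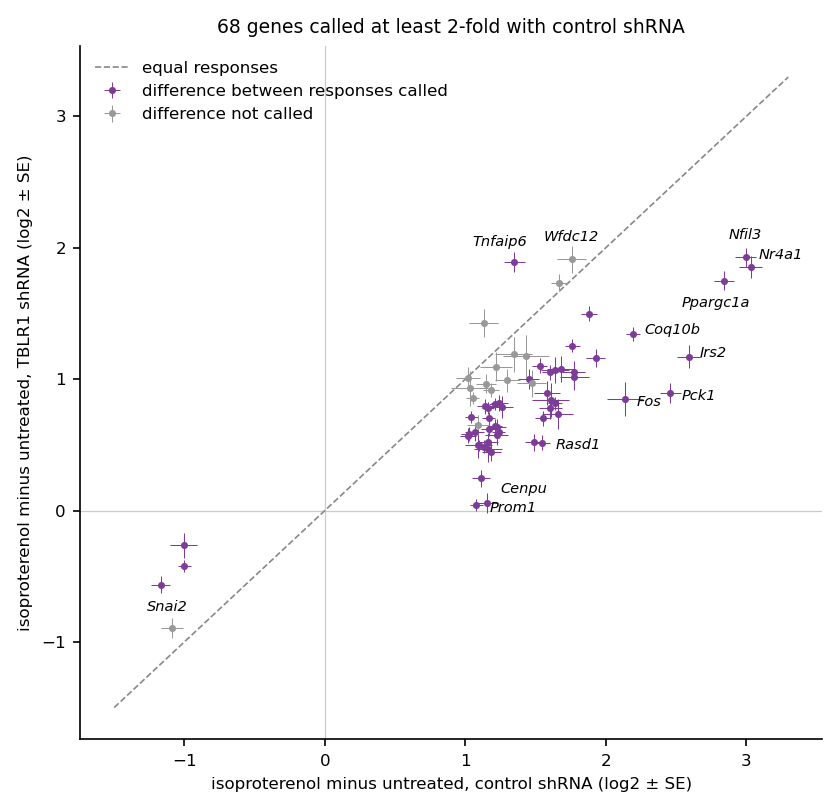
Log2 response to isoproterenol with the TBLR1 shRNA (y axis) against that with the control shRNA (x axis) for the 68 genes called at least 2-fold with the control shRNA, with bars for the SE. The dashed line marks equal responses. The difference was called for 50 of the 64 genes that rose and 3 of the 4 that fell, and Tnfaip6 lies above the line.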

How the data were processed

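Gene expression was measured on Affymetrix arrays from biotinylated cRNA of 12 samples of 3T3-L1 adipocytes, 3 in each of 4 groups, and groups were taken from the labels. The table as deposited holds log2 expression per probe set, a scale read from its range of 5.39 to 14.58. The authors had quantile normalised them, since sorted values differed between arrays by 0.00781 or less, so a shift shared by most transcripts is removed. For background correction and probe summarisation the method is not stated in the labels or headers. Precision is set by how many arrays there are and how far they spread, and the median SD of a gene was 0.0486 among treated and 0.0504 among untreated control shRNA arrays.

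Of 16553 probe sets, 61 control probe sets and 1222 without a gene symbol in the platform annotation, which can be old, were left out, and 15270 had 1 symbol. For the 3 genes with 2 probe sets the brighter was used, which gave 15267 genes. In limma 3.58.1 (R 4.3.3) the 12 arrays were fitted by their 4 group means with eBayes, and 2 contrasts were tested, two-sided, each adjusted by the Benjamini-Hochberg method over all genes. The exact permutation test of 3 arrays against 3 cannot go below p = 0.1 and was not used. Tables, promoter motif counts and figures were made with Python 3.11.15, pandas 2.3.3 and matplotlib 3.10.9. Promoter sequences are RefSeq's on GRCm38.p6.

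The genes and the 43 lists (724 different genes measured) were chosen with earlier results of these data known. The genes named by rule were the 3 response markers, the 15 largest rises and 15 largest falls without overlap between groups, up to 5 called members per list by size (2 where none was called) and every member of a list of at most 12, the 10 largest called differences between the responses, Tbl1xr1 and adipocyte markers. Alternatives were median centring, cyclic loess, centring on 18 hybridisation control probe sets, a trended and robust variance prior, only the 6 control shRNA arrays, array weights, a replicate block, the mean of probe sets, adjustment over all probe sets, a filter on the lowest 33% of genes, and leaving out each array.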

Additional observations from a re-analysis of the deposited data

Results flagged for a closer look

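The response to isoproterenol differed between cells with the TBLR1 shRNA and cells with the control shRNA for the genes given here, by the test of the difference itself in limma (Benjamini-Hochberg adjusted p under 0.05 over all genes). Each value below is the log2 response with the TBLR1 shRNA minus the log2 response with the control shRNA. Most of these genes were named because they responded strongly in the control arrays, which are also part of the difference, so the direction of the differences is a description. Of these 78 genes 50 kept the call of the difference under every alternative, and 28 lost it under at least 1 of them, 24 with 1 array left out, 15 under hybridisation control centring and 8 with the replicate number as a block. The 28 were Nr4a2, Fosl1, Klf6, Bhlhe40, Arntl, Pde4b, Sik2, Rrad, Dusp6, Dusp10, Akap1, Adcy3, Fgf21, Hilpda, Hcar2, Nrg4, Slc3a2, Rcor3, Dtwd1, Stat2, Cxcl10, Ccl5, Maff, Mcm7, Hspb8, Ptgfr, Fosl2 and Has2. Among the markers and immediate early genes the difference was -1.18 for Nr4a1, -1.07 for Nfil3, -1.09 for Ppargc1a, -0.60 for Nr4a2, -1.29 for Fos, -0.57 for Fosl1, -0.33 for Fosl2, -0.53 for Jun, -0.65 for Atf3 and -0.60 for Maff. Among genes of the cAMP pathway and its feedback the difference was -0.51 for Crem, -0.35 for Pde4b, -0.43 for Sik1, -0.34 for Sik2, -1.03 for Rasd1, 0.42 for Rrad, -0.77 for Dusp6, -0.47 for Dusp10, -0.34 for Akap1 and -0.27 for Adcy3. Among other transcription factors the difference was -0.83 for Klf4, -0.47 for Klf9, 0.64 for Klf6, -0.60 for Cebpb, -0.39 for Cebpa, -0.45 for Vdr, -0.33 for Bhlhe40, -0.43 for Cry1 and -0.36 for Arntl. Among genes of metabolism the difference was -1.57 for Pck1, -1.42 for Irs2, -0.77 for Pdk4, -0.38 for Hilpda, -0.45 for Hcar2, -0.54 for Ppargc1b, -0.54 for Pfkfb3, -0.85 for Coq10b, -0.72 for Slc25a25 and -0.31 for Slc3a2. Among secreted factors and receptors the difference was -0.30 for Fgf21, -0.42 for Nrg4, -0.52 for Vegfa, 0.65 for Metrnl, 0.55 for Ccl5, 0.23 for Ptgfr, 0.46 for Pdgfra and 0.74 for Cd274. Among stress and chaperone genes the difference was -0.55 for Ppp1r15a, 0.51 for Herpud1, 0.73 for Ddit3, -0.53 for Dnajb9, -0.65 for Bag3, -0.35 for Hspb8, -0.68 for Gadd45g, -0.97 for Plk3 and -0.69 for Ankrd37. Among the genes that fell with the control shRNA the difference was 0.61 for Snai2, 0.58 for Sertad3, 0.38 for Syde2, 0.27 for Rcor3, 0.56 for Mid1ip1, 0.48 for Cited2, 0.38 for Dtwd1, 0.35 for Stat2 and 0.23 for Mcm7. Among the remaining genes the difference was -0.76 for Rasgef1b, -0.92 for Noct, -0.83 for C9orf72, -0.85 for Pim3, -0.55 for Atg101, -0.56 for Bambi, -0.54 for Pmepa1, -1.03 for Prom1, -1.10 for Cenpu, 0.54 for Tnfaip6, -0.42 for Ugdh and 0.29 for Has2. Cxcl10 had the largest positive difference of these, 1.13. It read 12.87, 12.76 and 12.82 on isoproterenol and 12.82, 12.66 and 12.44 on untreated arrays with the TBLR1 shRNA, above every array with the control shRNA. Groups of 3 arrays are too small for a test of single outlying arrays, and none was run.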

How the results depend on the processing

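The count of genes called in the control response was 2250 to 2448 with 1 array left out and 2463 to 3145 under the other settings, against 2833 as reported. Genes called higher numbered 940 to 1033 with 1 array left out, and genes called lower 1310 to 1425. Centring on the hybridisation controls gave 620 higher and 1843 lower, and cyclic loess 1420 higher and 1415 lower. Genes at least 2-fold higher numbered 61 to 66 with 1 array left out and 59 to 64 otherwise, and those at least 2-fold lower 2 to 6, with 2 after cyclic loess. The members of lists that were called numbered 194 to 213 with 1 array left out and 196 to 239 otherwise, against 222. The share of promoters with the short element was 47.69% to 49.18%. The genes called in the difference between the responses numbered 198 to 385 with 1 array left out and 252 to 503 otherwise, against 366. Of these, 190 to 324 with 1 array left out were also called in the control response, and 222 under hybridisation control centring, against 341. With 1 array left out fewer arrays enter the fit, and the cause of the shifts under the other settings was not tested. Of 202 named genes that were called, 161 kept their call and direction under all 16 settings, and of the other 41, 27 lost it under hybridisation control centring and 34 with 1 array left out. Under these settings no called value changed sign. Deviations of same-numbered treated and untreated arrays from their group means correlated at 0.0936, -0.0693 and 0.0147 over all genes. Such values over all genes cannot say whether the numbers pair the samples for some genes. For Cxcl10, Ifit1 and Usp18 replicate 1 was the highest array of both groups. The limma adjusted p of Cxcl10 was 2.68e-05 with the replicate number as a block, against 0.000785 without it. With the replicate number as a block 2723 genes were called in the control response (1130 higher, 1593 lower) and 320 in the difference. The 3 arrays per group, of a single dose and time, limit the precision, and genes at the top of the quantile scale could hardly show a change.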

Other observations

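The first genes given here belong to no list of the report and were chosen after their values were seen, and no group of genes was tested. Ugdh, which makes UDP-glucuronic acid, read 12.43, 12.57 and 12.55 on isoproterenol arrays, against 11.28, 11.24 and 11.30 on untreated arrays, a rise of 1.24 ± 0.06 (limma, adjusted p = 3.85e-10). Uap1, which makes UDP-N-acetylglucosamine, read 11.73, 11.69 and 11.75 on isoproterenol arrays, against 10.76, 10.57 and 10.38 on untreated arrays, a rise of 1.15 ± 0.07 (adjusted p = 1.3e-08). The treated arrays were above all untreated ones for both genes. Gfpt1 and Gfpt2, the enzymes of the first step towards UDP-N-acetylglucosamine, rose by 0.62 ± 0.05 (adjusted p = 3.73e-07) and 0.50 ± 0.08 (adjusted p = 0.000161). Both UDP-sugars are the substrates of the hyaluronan synthases. The synthase genes were not called, with differences of 0.05 ± 0.04 for Has1, -0.06 ± 0.05 for Has2 and -0.00 ± 0.06 for Has3. Tnfaip6, whose product binds hyaluronan, rose by 1.35 ± 0.08 (adjusted p = 3.68e-09).

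Other genes at least 2-fold higher and in no list were likewise chosen after their values were seen. The gap junction gene Gja1 read 8.67, 8.59 and 8.71 on isoproterenol arrays, against 7.56, 7.38 and 7.12 on untreated arrays, a rise of 1.30 ± 0.09 (adjusted p = 3.24e-08). The carbonyl reductase gene Cbr3 rose by 1.18 ± 0.06, the sulfiredoxin gene Srxn1 by 1.02 ± 0.09 and Zfp36, which encodes an mRNA-destabilising protein, by 1.09 ± 0.08.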
